A study of Mus musculus with 39 samples.

Results

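The subject is the temperature dependence of a genotype effect in mouse brown fat: for each gene, the difference between Cre-labelled and control animals at 30 °C minus the same difference at 22 °C, called the interaction. It was computed for the 13176 of 24116 gene entries whose mean over 16 libraries was at least 10 normalised counts. All animals were male C57BL/6J mice whose Bcl6 gene carries recombination sites (floxed). Control animals had no Cre, and the others carried Cre under the promoter of Ucp1, so that recombination is restricted to cells that have used that promoter and the other cells of the depot keep the gene. Each genotype was kept on chow at a constant 22 °C or a constant 30 °C, and interscapular brown fat gave 4 polyA RNA libraries per combination. The labels give no age. Nothing in them ties the 4 libraries of a group to different mice, and p-values therefore speak of the spread between libraries, which may be technical.

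BCL6 is a zinc-finger transcriptional repressor, best known from germinal-centre B cells, that binds DNA motifs resembling those of STAT factors. Brown fat burns fuel to make heat under sympathetic drive, through the uncoupling protein UCP1, and is active in mice housed at ordinary room temperature. At 30 °C mice are close to thermoneutrality, where the drive falls and the depot takes on a paler form with more stored lipid. An interaction above 0 means that the Cre-labelled animals stood higher relative to controls in the warm than in the cool, and one below 0 that they stood lower.

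Of the 58 genes called for the interaction, 46 had 1 or more promoters in the RefSeq table of assembly GRCm38.p6, 58 promoters in all. The 250 bases before each start were searched on both strands for TTCNNNGAA, the spaced palindrome shared by STAT factors and BCL6, and for TTCCTNGAA, a form of it close to the BCL6 consensus. The 7 matches are shown because they are where a called gene's promoter carries letters of this kind. Each line runs 5′ to 3′ on the gene's strand with the match in capitals.
Cdhr5: tccagctaacTTCCTGGAAgtccaggccg
Hsd3b7: gctggtctccTTCCTGGAAtgggtcagga
Zfp62: aatagcaggcTTCCTGGAAatttgagctt
Cdsn: ccaagagttgTTCAACGAAgcaggtgctt
Cyp4b1: taggtctggtTTCTATGAAgctacatttt
Myd88: agggcggagcTTCTCGGAAagcgaaagaa
Syde1: aggccaagcaTTCCCGGAAtgcgcttcct

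The Cdhr5 line is chr7:141276898-141276926 on the minus strand, and its match begins 130 bases before the start. Those of Hsd3b7 and Zfp62 are chr7:127800578-127800606 and chr11:49203055-49203083, both on the plus strand. The Cdsn line is chr17:35542931-35542959 on the plus strand. Those of Cyp4b1, Myd88 and Syde1 lie on the minus strand at chr4:115647890-115647918, chr9:119340046-119340074 and chr10:78591981-78592009. The first 3 genes carry TTCCTNGAA, which stood in 5.17% of the 58 promoters of called genes, in 1.03% of the 13363 promoters of genes tested and in 1.31% of all 32851 promoters of the table. The wider TTCNNNGAA, which includes it, stood in 12.1%, 5.89% and 7.02% of the same promoters. The authors' BCL6 peaks overlapped none of the 58 promoter windows, flanks of 50 bases past the start included, so these are matches of letters only.

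Bcl6 itself was higher in the libraries labelled Cre-positive at both temperatures. At 22 °C the control libraries held 916, 799, 764 and 1838 normalised counts and the Cre-labelled libraries 3263, 2671, 3362 and 3927. At 30 °C the controls held 2340, 2266, 1763 and 1020 and the Cre-labelled libraries 3269, 4451, 5159 and 4985. The groups overlapped at neither temperature, and the interaction was -0.38 ± 0.39 (log2 scale, SE) with an adjusted p of 0.792 (limma). A sum over the whole transcript does not check the loss of the floxed part, and the level goes against a simple reading of the label, so the libraries are called Cre-labelled throughout.

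Totals of normalised counts ran from 8867615 to 13516936 per library, and 14311 to 16849 genes had a value above 0. The spacing of low values puts 1 read at about 0.50 normalised counts in the deepest library and at about 3.92 in the shallowest, control 22 °C library 1. The brown-fat markers Ucp1 and Cidea were present in every library, from 3761 to 119740 and from 13232 to 56986 normalised counts. Skeletal muscle genes varied widely, with the sum of 39 of them between 3273 and 54146 per library. In bulk tissue, fewer cells of a type and less RNA per cell cannot be told apart.

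Few genes were called for a genotype effect that depended on temperature. Genes not called were not shown to have equal effects at both temperatures. On log2(value + 1), limma called 58 of 13176 genes at a Benjamini-Hochberg adjusted p under 0.05, which is 0.440% of those tested. The interaction was above 0 for 23 genes (0.175%) and below 0 for 35 (0.266%), while 1387 genes (10.5%) had an unadjusted p under 0.05 and the median interaction of all genes was -0.01. The genotype difference itself was called for 1344 genes at 22 °C (10.2%) and 1647 at 30 °C (12.5%), of which 609 were called at both. Only 6 of those 609 had opposite signs at the 2 temperatures, and all 6 were among the 58. Differences of opposite sign add up in the interaction, so these 6 calls nearly follow from the signs. The 58 genes are all annotated as protein-coding, and the highest group mean of each ran from 56.0 to 11076 normalised counts with a median of 537, against a median of 337 over all genes tested.

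**Figure D1:**
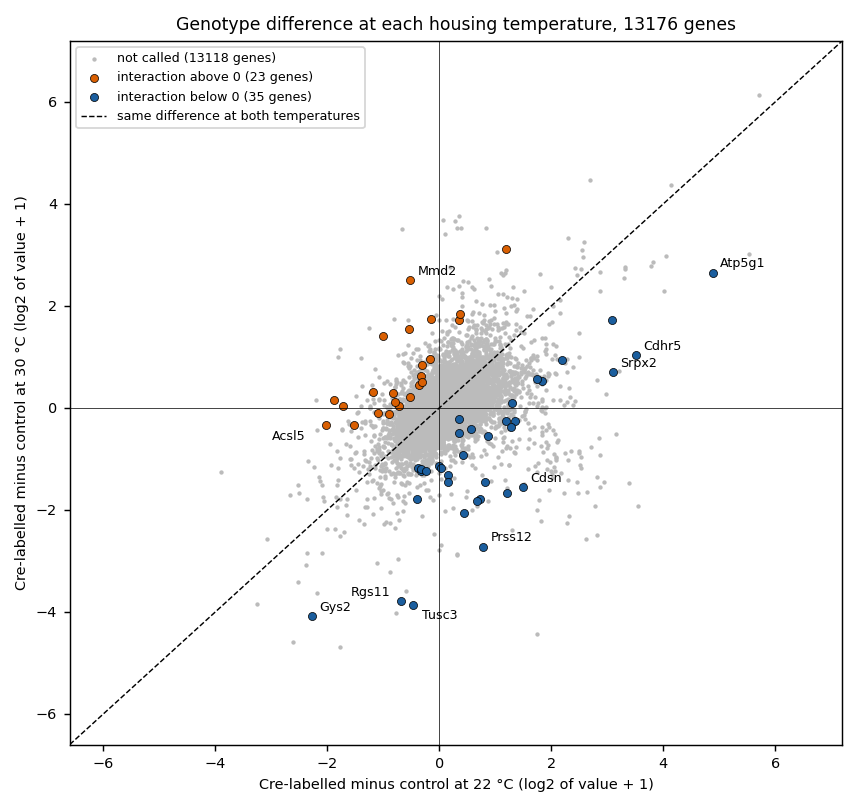
Log2 difference between Cre-labelled and control libraries at 22 °C (horizontal) and at 30 °C (vertical) for 13176 genes, 1 point per gene, with the dashed line marking equal differences. The 23 orange genes lie above the line and the 35 blue genes below it. Tusc3 sits at -0.47 on the horizontal and -3.86 on the vertical axis, and Rgs11 at -0.68 and -3.79.

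The 58 genes fell into several shapes. With a difference under 0.5 on the log2 scale taken as near 0, the genotype difference was near 0 at 22 °C for 7 of the 23 genes above 0 and 12 of the 35 below, and near 0 at 30 °C for 11 and 5. Signs were opposite, with both differences beyond 0.5, for 3 and 7 genes, and opposite at any size for 16 and 18. By group means, the group farthest from the other 3 was the control group at 30 °C for 22 genes and at 22 °C for 19, and a Cre-labelled group for the remaining 17, a description chosen after the values were seen. Over all genes tested it was the control group at 30 °C for 21.5%, at 22 °C for 39.7%, and the Cre-labelled group at 22 and 30 °C for 10.4% and 28.5%. In control animals 33 of the 35 genes below 0 were higher at 30 °C than at 22 °C and 19 of the 23 above 0 were lower, beside 52.7% of all genes tested that were higher at 30 °C. The same control libraries enter the interaction, so this describes its shape and supports nothing further.

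The call held for 18 of the 58 genes after leaving out each of the 16 libraries in turn and under every other alternative in which the gene was kept. These were Mt2, Acsl5, Myd88 and 5031439G07Rik above 0 and 14 genes below 0. The remaining 40 lost the call without at least 1 library, 11 of them without 1 to 5 libraries and 29 without more. Other losses given for single genes leave out a fit with the replicate number as a block, which kept 24 of the 58 calls. The total fell to 21 calls without control 22 °C library 3 and to 21 without Cre-labelled 30 °C library 1. Without control 30 °C library 1 or 3 it was 23, without control 22 °C library 2 it was 38, without control 30 °C library 4 it was 34, and without Cre-labelled 22 °C library 1 or 4 it was 35 or 36. It rose to 102 without control 22 °C library 1, the shallowest, and to 180 without this library and Cre-labelled 22 °C library 2, the pair with the fewest genes above 0.

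**Figure D2:**
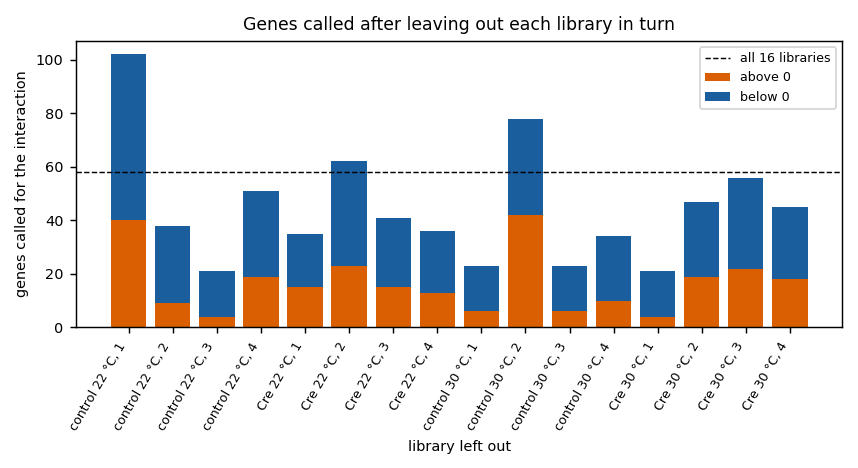
Number of genes called for the interaction after leaving out each library, split into those above 0 (orange) and below 0 (blue), with the dashed line at the 58 calls from all 16 libraries. The total runs from 21 to 102, and the share above 0 from 4 of 21 genes to 42 of 78.

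The leading pattern was a set of genes that were high in warm controls and stayed low in warm Cre-labelled animals. Tusc3, a subunit of the oligosaccharyltransferase complex that attaches sugars to asparagine, gave the clearest case. Its control libraries held 341, 178, 195 and 266 normalised counts at 22 °C and 3772, 3903, 3082 and 3012 at 30 °C. The Cre-labelled libraries held 145, 256, 168 and 136 at 22 °C and 215, 260, 206 and 261 at 30 °C. The 4 warm controls thus stood apart from all 12 other libraries, none of which passed 341. The genotype difference was -0.47 at 22 °C (adjusted p = 0.160) and -3.86 at 30 °C (adjusted p = 4.7e-09), and the interaction was -3.39 ± 0.29 (SE, limma adjusted p = 1.2e-05).

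Rgs11, a GTPase-activating regulator of G-protein signalling, was also high in warm controls alone, at a lower level. Warm controls held 264, 194, 311 and 220 normalised counts, and no library of the other 3 groups passed 21.8. The interaction was -3.12 ± 0.40 (SE, limma adjusted p = 0.000921). Prss12, which encodes the secreted serine protease neurotrypsin, had 111, 121, 91.9 and 140 normalised counts in warm controls and no more than 23.3 in any other library. Its interaction of -3.50 ± 0.42 was the farthest below 0 of all called genes (SE, limma adjusted p = 0.000564). Mras, a Ras-related GTPase, ran from 257 to 343 normalised counts in warm controls and from 93.9 to 125 in the other 12 libraries, with an interaction of -1.60 ± 0.18 (SE, limma adjusted p = 0.000237).

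Cdsn and Ddah1 crossed over, with the Cre-labelled animals higher in the cool and lower in the warm. Cdsn encodes corneodesmosin, an adhesion protein best known from the outer epidermis. It had 157, 65.9, 104 and 86.9 normalised counts in cool controls against 285, 218, 301 and 325 in cool Cre-labelled animals. In the warm the order was inverted, with 600, 608, 735 and 721 in controls against 223, 225, 244 and 210. Neither pair of groups overlapped. The difference was 1.50 at 22 °C (limma adjusted p = 0.000123) and -1.55 at 30 °C (adjusted p = 7.0e-05), for an interaction of -3.05 ± 0.28 (SE, adjusted p = 2.0e-05).

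Ddah1, which breaks down the nitric oxide synthase inhibitor asymmetric dimethylarginine, ran from 23.7 to 29.4 normalised counts in cool controls and from 39.0 to 49.9 in cool Cre-labelled animals. It ran from 148 to 184 in warm controls and from 42.2 to 54.4 in warm Cre-labelled animals. The Cre-labelled level was therefore close to the same at both temperatures while the control level was not, and the interaction was -2.52 ± 0.21 (SE, limma adjusted p = 1.2e-05). Emid1, an extracellular protein with a collagen-like part, had means of 14.3 ± 6.82 and 104 ± 8.75 normalised counts in controls at 22 and 30 °C (SD, n = 4 libraries) and of 21.7 ± 3.62 and 29.3 ± 6.55 in Cre-labelled animals, with an interaction of -2.49 ± 0.40 (SE, adjusted p = 0.00936).

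Zfr2, Kcnj11 and Spag5 shared this shape with less stable calls. Zfr2, named for its zinc-finger RNA-binding relative Zfr, had a mean of 131 ± 29.9 in warm controls (SD) and means of 18.7 to 47.6 in the other 3 groups, with an interaction of -2.88. Its adjusted p of 0.0211 became 0.0581 without control 30 °C library 3 and 0.0591 with the muscle score as a covariate. Kcnj11, the pore subunit of ATP-sensitive potassium channels, ran from 205 to 254 normalised counts in warm controls and from 27.1 to 115 elsewhere, with an interaction of -2.50. The call for Kcnj11 was lost without any 1 of 9 libraries, and that for Spag5, a mitotic spindle protein with an interaction of -2.26, without any 1 of 14, with adjusted p up to 0.0739 and 0.103. Without the variance trend both also lost it (adjusted p = 0.0538), and Spag5 lost it under both other filters and quantile normalisation (up to 0.0766).

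**Figure D3:**
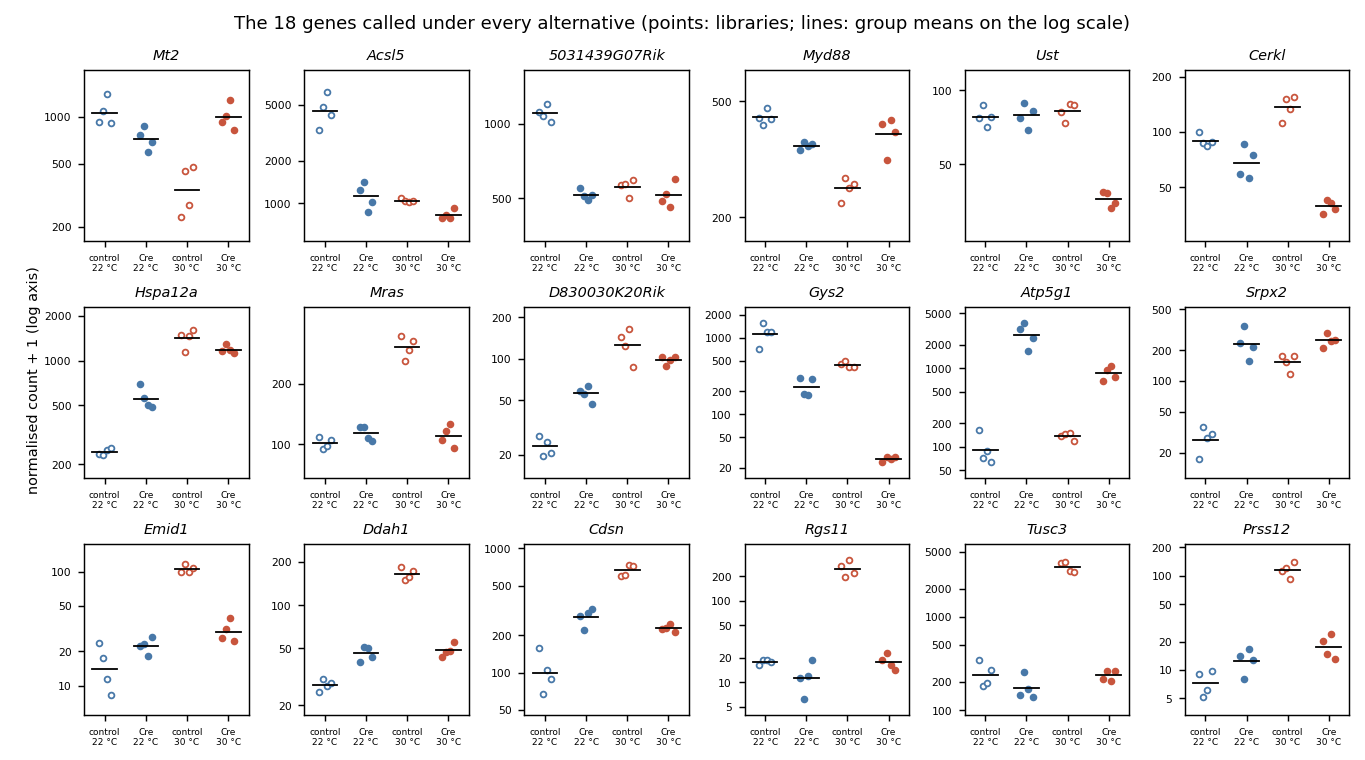
Normalised count + 1 on a log axis in each library (points) with the group mean on the log scale (lines) for the 18 genes whose call held under every alternative that kept them, open points for controls and filled points for Cre-labelled libraries, blue for 22 °C and red for 30 °C. Tusc3, Rgs11, Prss12, Emid1, Ddah1 and Mras show the 4 warm controls above every other library.

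A second shape was a genotype difference present in the cool that was smaller or gone in the warm. Srpx2, a secreted protein with sushi repeats, had 16.1, 34.6, 26.8 and 29.1 normalised counts in cool controls against 234, 346, 157 and 215 in cool Cre-labelled animals. In the warm the controls had 175, 153, 117 and 176 and the Cre-labelled animals 210, 295, 243 and 253. Cool controls were thus the low group. Warm Cre-labelled animals, with a mean of 250 normalised counts, were near the cool Cre-labelled mean of 238. Warm controls were lower, with a mean of 155, and did not overlap warm Cre-labelled animals. The difference was 3.10 at 22 °C (limma adjusted p = 7.0e-07) and 0.70 at 30 °C (adjusted p = 0.0667), and the interaction was -2.41 ± 0.34 (SE, adjusted p = 0.0025).

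Hspa12a, a distant member of the Hsp70 chaperone family, ran from 231 to 254 normalised counts in cool controls and from 481 to 696 in cool Cre-labelled animals. The warm groups overlapped, with 1146 to 1598 in controls and 1117 to 1293 in Cre-labelled animals. The interaction was -1.45 ± 0.17 (SE, limma adjusted p = 0.000526). The clone-named D830030K20Rik had control and Cre-labelled means of 22.3 ± 3.69 and 55.3 ± 6.96 in the cool and 129 ± 33.3 and 97.3 ± 6.84 in the warm (SD), with an interaction of -1.65 ± 0.27 (SE, adjusted p = 0.00975), and its value is uncertain where near-identical copies share reads.

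Atp5g1, which encodes a copy of the ring-forming c subunit of the mitochondrial ATP synthase, had the strongest genotype difference of the 58 in the cool. Control libraries held 160, 70.8, 86.2 and 62.8 normalised counts at 22 °C and 134, 144, 148 and 117 at 30 °C. Cre-labelled libraries held 3177, 3765, 1677 and 2408 at 22 °C and 695, 945, 1070 and 766 at 30 °C. Genotypes did not overlap at either temperature. From 22 to 30 °C the Cre-labelled level differed by -1.62 and the control level by 0.60 on the log2 scale. The difference was 4.88 at 22 °C and 2.65 at 30 °C, with an interaction of -2.23 ± 0.37 (SE, limma adjusted p = 0.0114). Other genes encode the same mature protein, and how reads were divided between such copies is not stated in the labels or the file.

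The cool-weighted group also held Cdhr5, Tnc, Fads1 and Slc22a4. Cdhr5, a cadherin of microvilli, had means of 10.5 ± 5.28 and 127 ± 47.3 normalised counts in cool control and Cre-labelled animals and of 85.3 ± 5.50 and 179 ± 41.2 in the warm (SD), with an interaction of -2.48. Tnc, the matrix glycoprotein tenascin C, had means of 131 ± 32.0 and 594 ± 97.0 in the cool and of 684 ± 124 and 1306 ± 103 in the warm (SD), with an interaction of -1.24. Both genes were higher in Cre-labelled animals at each temperature. Fads1, the delta-5 desaturase of polyunsaturated fat synthesis, had means of 223 ± 27.3 and 764 ± 203 in the cool and 518 ± 58.3 and 766 ± 47.1 in the warm (SD), and its interaction was -1.17. Slc22a4, a transporter of ergothioneine, had an interaction of -1.61. These 4 calls (limma adjusted p = 0.0256, 0.029, 0.029 and 0.045) were lost without any 1 of 7, 9, 5 and 13 libraries, with adjusted p up to 0.0643, 0.0739, 0.0738 and 0.104. Changes of filter, variance model, scaling or the muscle covariate also ended them, with adjusted p up to 0.0663, 0.0538, 0.0804 and 0.0824.

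Another shape was a deficit of the Cre-labelled animals that deepened or first appeared in the warm. Gys2, the glycogen synthase isoform best known from liver, had 708, 1560, 1181 and 1175 normalised counts in cool controls and 295, 182, 176 and 291 in cool Cre-labelled animals. In the warm, controls had 454, 503, 419 and 414 and Cre-labelled animals 22.8, 27.1, 25.0 and 26.4. The Cre-labelled animals were lower at both temperatures with no overlap, and by more in the warm. The difference was -2.28 at 22 °C (limma adjusted p = 2.7e-06) and -4.09 at 30 °C (adjusted p = 4.5e-09), with an interaction of -1.81 ± 0.30 (SE, adjusted p = 0.00975).

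Ust, a sulfotransferase acting on dermatan and chondroitin sulfate, ran from 68.2 to 87.4 normalised counts across cool controls, cool Cre-labelled and warm control libraries. In warm Cre-labelled animals it ran from 32.4 to 37.6, so that 1 group stood apart from the other 12 libraries. Its interaction was -1.21 ± 0.20 (SE, limma adjusted p = 0.00959). Cerkl, a relative of ceramide kinase, ran from 82.3 to 98.8 normalised counts in cool controls, from 54.8 to 85.0 in cool Cre-labelled animals, from 111 to 154 in warm controls and from 34.7 to 41.6 in warm Cre-labelled animals, with an interaction of -1.40 ± 0.23 (SE, adjusted p = 0.00975). Pde4a, a phosphodiesterase that degrades cyclic AMP, had means of 1111 ± 169 and 879 ± 47.3 in the cool and 1235 ± 194 and 522 ± 93.8 in the warm (SD). Its interaction of -0.92 (adjusted p = 0.0494) lost the call without any 1 of 15 libraries, with adjusted p up to 0.122, and under 5 other settings, with adjusted p up to 0.0834.

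Among the genes above 0, Acsl5 had the smallest adjusted p and the deepest deficit of Cre-labelled animals in the cool. Acsl5, a synthetase that activates long-chain fatty acids by joining them to coenzyme A, had 3292, 4836, 6116 and 4255 normalised counts in cool controls and 1244, 1415, 859 and 1019 in cool Cre-labelled animals. In the warm, controls had 1081, 1040, 1017 and 1030 and Cre-labelled animals 777, 824, 787 and 916. Cool controls were the group apart, and the warm genotypes, although they did not overlap, differed by -0.34 (limma adjusted p = 0.207) against -2.02 in the cool (adjusted p = 1.1e-06). The interaction was 1.68 ± 0.23 (SE, adjusted p = 0.00249).

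The clone-named 5031439G07Rik ran from 1014 to 1202 normalised counts in cool controls and from 459 to 599 in the other 12 libraries, with an interaction of 0.98 ± 0.14 (SE, limma adjusted p = 0.0025). C3, the central complement component, had 7796, 12168, 12595 and 11743 in cool controls and 3266, 2049, 3929 and 4604 in cool Cre-labelled animals. Warm controls (3036 to 4563) and warm Cre-labelled animals (3098 to 4795) overlapped. The interaction of C3 was 1.74 ± 0.32 (SE, adjusted p = 0.0223), and the call was lost without control 22 °C library 3, control 30 °C library 3 or Cre-labelled 30 °C library 1, with adjusted p up to 0.0643, and after quantile normalisation (0.0767).

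Cd14, the lipopolysaccharide co-receptor of myeloid cells, had 140, 126, 124 and 121 normalised counts in cool controls and 44.7, 66.0, 56.1 and 59.1 in cool Cre-labelled animals. The warm groups overlapped at 65.5 to 123 and 99.0 to 141, and the interaction was 1.48 ± 0.28 (SE, limma adjusted p = 0.0256). Its call was lost without control 22 °C library 3, control 30 °C library 1 or 3, or Cre-labelled library 1 of either temperature, with adjusted p up to 0.0643, and with the muscle covariate (0.0789). Summed over 25 macrophage markers, including Cd14, cool controls held 2226 to 3318 and cool Cre-labelled animals 3666 to 4796, the order opposite to that of Cd14, and warm controls held 5254 to 6647 and warm Cre-labelled animals 8884 to 27952. None of the 25 markers was at 0 throughout a group, and the part of these cells in the result was not tested. Tmem8, a lipase acting on glycosylphosphatidylinositol anchors (Pgap6 in RefSeq), and Hip1r, an endocytic adaptor of clathrin and actin, had interactions of 1.19 and 1.12, with calls lost without any 1 of 6 and 14 libraries and adjusted p up to 0.0643 and 0.0923. Tmem8 also lost it with the muscle covariate (0.063) or no filter, and Hip1r without the variance trend (0.0625).

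Other genes above 0 stood higher in Cre-labelled animals in the warm. Mt2, a small cysteine-rich metallothionein that binds zinc and copper, had 927, 1082, 1385 and 907 normalised counts in cool controls and 761, 876, 596 and 693 in cool Cre-labelled animals. In the warm, controls had 230, 449, 275 and 474 and Cre-labelled animals 926, 1003, 1265 and 825. Warm controls were the low group and warm Cre-labelled animals were at the level of cool controls. The difference was -0.55 at 22 °C (limma adjusted p = 0.116) and 1.54 at 30 °C (adjusted p = 0.000183), and the interaction was 2.09 ± 0.30 (SE, adjusted p = 0.0035).

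Mt1, the neighbouring metallothionein 5315 bases away on chromosome 8, had 1084, 1390, 1227 and 1494 normalised counts in warm controls and 1953, 2493, 3381 and 1723 in warm Cre-labelled animals. Cool controls ran from 3286 to 4011 and cool Cre-labelled animals from 2731 to 3249. Its interaction of 1.15 ± 0.24 (SE, limma adjusted p = 0.0403) lost the call without any 1 of 10 libraries, with adjusted p up to 0.111, and with no filter or no variance trend (up to 0.0684). Mt1 and Mt2 are similar in sequence, so reads may be shared between them.

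Myd88, the adaptor that carries signals from Toll-like and interleukin-1 receptors, had 439, 413, 473 and 434 normalised counts in cool controls and 339, 361, 350 and 355 in cool Cre-labelled animals. In the warm, controls had 223, 272, 250 and 258 and Cre-labelled animals 418, 312, 432 and 392. Genotypes did not overlap at either temperature and their order was inverted, although the difference at 22 °C, -0.32, did not pass the test (limma adjusted p = 0.0661). The difference at 30 °C was 0.62 (adjusted p = 0.0011) and the interaction 0.94 ± 0.15 (SE, adjusted p = 0.00959). The macrophage marker sums given above were higher in Cre-labelled animals than in controls at both temperatures. Myd88 was higher in Cre-labelled animals in the warm and lower in the cool. The part of macrophages in the Myd88 result was not tested.

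Mmd2, a membrane protein of the progestin and adipoQ receptor family, had the highest interaction of the called genes, 3.02 ± 0.60 (SE, limma adjusted p = 0.0356). Its libraries spread widely, with 456, 406, 363 and 347 normalised counts in cool controls and 113, 408, 518 and 234 in cool Cre-labelled animals. Warm controls had 95.6, 99.4, 56.2 and 53.5 and warm Cre-labelled animals 314, 206, 751 and 639. The call was lost without any 1 of 10 libraries, with adjusted p up to 0.0913, and under other variance models or the muscle covariate (up to 0.103).

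Fosl2, an AP-1 transcription factor, had 1532, 981, 2585 and 1167 normalised counts in warm Cre-labelled animals and no more than 529 in any of the other 12 libraries. Its interaction was 1.90 ± 0.38 (SE, limma adjusted p = 0.0348), and the call was lost without any 1 of 10 libraries, with adjusted p up to 0.0906, and without the variance trend (0.064). The sum over 25 immediate early genes, Fosl2 included, which respond within minutes to stimulation and to handling of tissue, ran from 15176 to 53211 in warm Cre-labelled animals and from 7755 to 16848 in the other groups. The part of that response in the result was not tested. Ifrd1, a transcriptional co-regulator, Cd83, a surface protein of activated immune cells, and Obsl1, a cytoskeletal adaptor, had interactions of 1.13, 1.36 and 1.47. Their calls were lost without any 1 of 9, 12 and 6 libraries, with adjusted p up to 0.0799, 0.111 and 0.0701. All 3 were lost with the muscle covariate (limma adjusted p = 0.0617, 0.148 and 0.0617). Ifrd1 also lost it without the variance trend (0.0567), and Cd83 with no filter (0.0797) or a mean of at least 50 (0.0515).

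**Figure D4:**
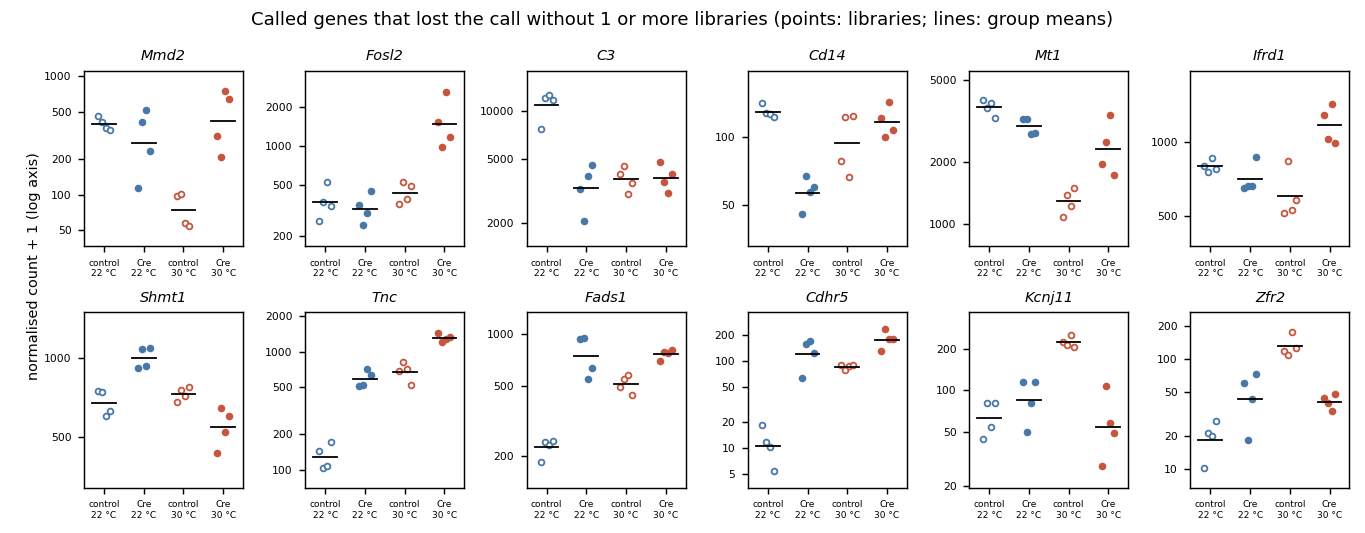
Normalised count + 1 on a log axis in each library (points) with group means on the log scale (lines) for 12 called genes that lost the call without 1 or more libraries, coloured and filled as in the plot of the 18 stable genes. Fosl2 is high only in the 4 warm Cre-labelled libraries, while C3 is high only in the 4 cool controls.

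A further 16 called genes were taken neither by the naming rule nor by the choices made after seeing the values. The 6 above 0 ran from 0.76 to 2.05 with adjusted p of 0.0223 to 0.043, and the 10 below 0 from -1.48 to -0.81 with adjusted p of 0.0223 to 0.045 (limma). Over all called genes the genotype groups did not overlap at 22 °C for 18 of 23 above 0 and 19 of 35 below 0, and at 30 °C for 13 of 23 and 30 of 35. Among all genes tested the groups did not overlap for 12.4% at 22 °C and 22.9% at 30 °C. The interaction uses these same differences, so nothing further is read from the counts.

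**Figure D5:**
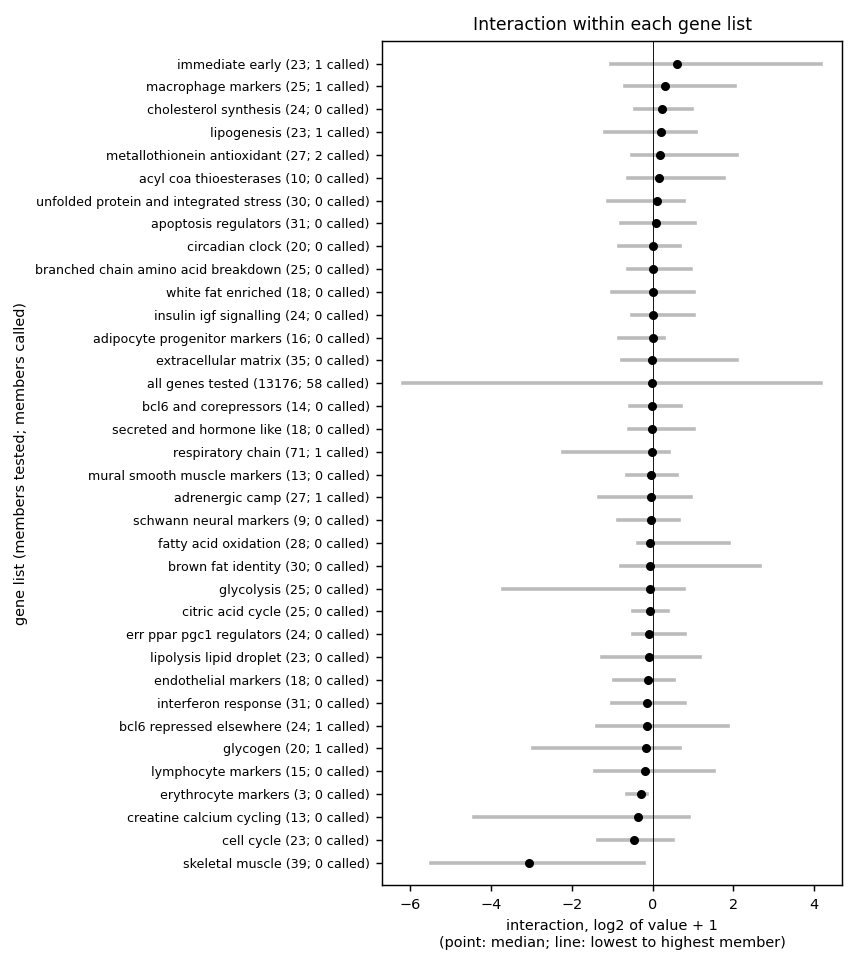
Median interaction (points) and range from the lowest to the highest member (lines), on the log2 scale, for each of 35 gene lists and for all 13176 genes tested, with the members tested and called in each label. The median of skeletal muscle genes lies at -3.06 with no member called, and most other medians lie within 0.3 of 0.

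For thermogenic and fuel genes the counts of calls are to be read beside the 0.440% of all genes that were called, at which lists of this length hold few or no calls. In every list below, counts at an unadjusted p under 0.05 are to be read beside 10.5% of all genes. Of 30 brown-fat identity genes tested, limma called 0, while 7 (23.3%) had an unadjusted p under 0.05 beside 10.5% of all genes, 3 above 0 and 4 below, with a median interaction of -0.06 beside -0.01 for all genes. Ucp1, the uncoupling protein, had means of 88819 ± 26458 and 45894 ± 11771 normalised counts in control and Cre-labelled animals at 22 °C and of 16596 ± 2078 and 5329 ± 1554 at 30 °C (SD, n = 4 libraries). Cre-labelled animals were lower at both temperatures, and the interaction was -0.74 with a 95% interval from -1.48 to -0.01 and an adjusted p of 0.474. Elovl3, an elongase of very long chain fatty acids, had an interaction of 2.65 (adjusted p = 0.184), with means of 938 ± 599 and 53.9 ± 18.4 in the cool and of 7.65 ± 5.34 and 2.41 ± 1.76 in the warm (SD). These warm values were low enough for the added 1 to shrink the warm difference and so enlarge the interaction. Elovl3 was called under 2 of 12 other settings, a pseudocount of 10 among them.

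Fatty acid oxidation, citric acid cycle and respiratory chain genes had medians near that of all genes. Those of glycogen, lipogenesis and cholesterol synthesis genes lay farther from it. Of 28 fatty acid oxidation genes limma called 0, with 4 (14.3%) at an unadjusted p under 0.05 and a median of -0.06. Of 25 citric acid cycle genes it called 0, with 1 (4%) at an unadjusted p under 0.05 and a median of -0.08. Of 71 respiratory chain genes 1 was called, Atp5g1, and the median was -0.03. Among 20 glycogen genes 1 was called, Gys2, and the median was -0.17. Lipogenesis had 1 of 23 called, Fads1 below 0, while the list's median was 0.21, on the other side of 0 from its called member. Of 24 cholesterol synthesis genes limma called 0, while 6 (25%) had an unadjusted p under 0.05, all above 0. The median of this list was 0.24, with Msmo1, a sterol demethylase, at 0.98 (limma adjusted p = 0.173).

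In the list of 27 metallothionein and antioxidant genes 2 were called, Mt1 and Mt2, both above 0, and the median was 0.17. Glutathione reductase, Gsr, and haem oxygenase, Hmox1, had interactions of 0.63 and 0.67 that did not pass (limma adjusted p = 0.195 and 0.373). Of 23 immediate early genes 1 was called, Fosl2, with 8 (34.8%) at an unadjusted p under 0.05, all above 0, and a median of 0.60. Fosb and Atf3 had interactions of 4.18 and 3.15 that did not pass (adjusted p = 0.19 and 0.106). Of 24 genes that BCL6 is known to repress in other cells 1 was called, Myd88, and the median was -0.14.

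Adrenergic and cyclic AMP genes had 1 of 27 called, Pde4a, and a median of -0.05, and macrophage markers 1 of 25, Cd14, with a median of 0.30. Skeletal muscle genes had the lowest median, -3.06, with all 39 below 0, 0 called by limma and 8 (20.5%) at an unadjusted p under 0.05. Their sums were 4341 to 9805 in cool controls, 4384 to 54146 in cool Cre-labelled animals, 18688 to 30756 in warm controls and 3273 to 46659 in warm Cre-labelled animals, so that libraries of 1 group differed by over an order of magnitude. No muscle marker was at 0 throughout a group. With a muscle score as a covariate 34 genes were called for the interaction, 30 of them among the 58.

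The remaining lists had no called member by limma. Cell cycle genes had a median of -0.45 and 3 of 23 (13%) at an unadjusted p under 0.05. Top2a, a DNA topoisomerase of dividing cells, was at -1.36 (limma adjusted p = 0.332). Interferon response genes had a median of -0.13 and 4 of 31 (12.9%) at an unadjusted p under 0.05. Larger shares stood in 10 acyl-CoA thioesterase genes (30%, 3 above 0 and 0 below, median 0.15). In 30 unfolded protein and integrated stress genes the share was 23.3%, with 4 above 0 and 3 below. White-fat, secreted-factor and insulin and IGF lists each stood at 16.7%, and regulator and clock lists lower, at 4.17% and 5%. Among the lists for other cell types, endothelial, mural, progenitor, Schwann and lymphocyte markers had medians between -0.19 and 0.00, with 0, 1, 1, 0 and 2 members at an unadjusted p under 0.05. Extracellular matrix genes had a median of 0.00 over 35 members.

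BCL6 binding in control brown fat at 30 °C, as listed by the authors, was near few of the called genes. A peak was assigned within 10 kb of the start of 2 of the 23 genes above 0 (8.7%) and 3 of the 35 below (8.57%). The share was 7.75% of the 13118 genes not called and 9.17% of the 2324 genes called for genotype at either temperature but not for the interaction. With 5 genes in all, no difference between these shares was tested or is claimed. The peak score is the authors' own value and serves here only to rank peaks within the list.

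Atp5g1 had peaks on either side of the gene, at chr11:96076816-96076996 (mm10), 1212 bases upstream of the start, and at chr11:96070429-96070609. Their scores of 48.6 and 47.9 ranked 19 and 20 among 3022 peaks, and both are annotated as intergenic. The peak of Tnc, at chr4:64047304-64047484, lay 379 bases upstream of the start with a score of 34.9, rank 35, and is annotated as promoter. Both genes were higher in Cre-labelled animals at each temperature, more so at 22 °C.

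Shmt1, the cytosolic serine hydroxymethyltransferase of one-carbon metabolism, had a peak at chr11:60810981-60811161, 194 bases past the start, with a score of 13.0 and rank 236. It had 744, 736, 598 and 628 normalised counts in cool controls against 911, 1074, 926 and 1090 in cool Cre-labelled animals. Warm controls had 676, 750, 711 and 774 and warm Cre-labelled animals 434, 643, 518 and 597. Genotypes were apart at both temperatures and changed order, with an interaction of -0.99 ± 0.17 (SE, limma adjusted p = 0.0174) that became an adjusted p of 0.0511 without control 22 °C library 3. Acsl5 and 5031439G07Rik had weaker peaks, at chr19:55253828-55254008 and chr15:84987502-84987682, 549 and 379 bases past the start, with scores of 5.18 and 4.65.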

How the data were processed

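RNA of 16 libraries in 4 groups of 4 was analysed. The authors deposited 1 normalised count per gene and library, a signal whose library sizes are removed; per the submitters' processing notes kallisto, DESeq2 and mm10 were used, with versions, annotation and filters not given in the sources used here. Low values fall on steps per library, but only 9.46 to 24.7% of values under 20 were within 0.02 of a whole multiple, so reads were not recovered and raw depth is an estimate. Of 24116 entries 26 symbols had become dates and were restored, and 0 sample columns were left unused. The authors' deposited BCL6 peak list gives a score per peak and a distance to the nearest start, annotated with HOMER on mm10 per the file headers; its calling threshold and control library were not given in the sources used. Other ChIP samples were not analysed here.

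Group means of log2(value + 1) were fitted for genes with a mean of at least 10 by limma 3.58.1 in R 4.3.3 (trended empirical Bayes, residual degrees of freedom 12, prior 4.83), with Benjamini-Hochberg adjustment over 13176 genes. Fold changes are on that scale and understate a genotype difference between low groups. An interaction can therefore be overstated where a gene is low at only 1 temperature. Errors after ± are the SE of log2 values and the SD of normalised counts. The fit was tested on simulated data. Gene coordinates, promoters and biotypes come from RefSeq GRCm38.p6. The genes, gene lists and alternatives were chosen with earlier results of these data known. The rule names Bcl6, the 14 highest and 14 lowest interactions among called genes with a group mean of at least 100, the 8 smallest adjusted p and up to 4 members per list with the smallest adjusted p; 10 called genes were named after their values were seen, for holding under all alternatives, a nearby peak or a motif. Alternatives covered the pseudocount, filter, variance model, scaling, array weights, a muscle covariate, a replicate block and libraries left out. The result of 1 called gene is not reported here.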

Additional observations from a re-analysis of the deposited data

Results flagged for a closer look

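The interaction is a test of whether the genotype difference itself differed between 22 and 30 °C. It passed for each gene named here at a limma adjusted p under 0.05. The stability of each call is given above, except for Zfp62, Hsd3b7, Syde1 and Cyp4b1. With the muscle covariate these lost the call, at limma adjusted p of 0.0789, 0.0807, 0.113 and 0.1355. Each also lost it when some single library was left out. Hsd3b7, Syde1 and Cyp4b1 also lost it without the variance trend, at 0.0671, 0.0567 and 0.0754. Hsd3b7 lost it after quantile normalisation too (0.0663), and Cyp4b1 with no filter (0.0578). Among genes above 0 with roles in immunity or transcription, the log2 interaction was 1.90 for Fosl2, 1.74 for C3, 1.48 for Cd14, 1.36 for Cd83, 1.13 for Ifrd1, 0.94 for Myd88 and 0.75 for Zfp62. Among metal-binding and metabolic genes above 0 it was 2.09 for Mt2, 1.15 for Mt1, 1.68 for Acsl5, 1.19 for Tmem8 and 0.89 for Hsd3b7, an enzyme of bile acid synthesis. Among the other genes above 0 it was 3.02 for Mmd2, 1.47 for Obsl1, 1.12 for Hip1r and 0.98 for 5031439G07Rik.

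Among genes below 0 whose product is secreted, lies in the matrix or serves adhesion, it was -3.50 for Prss12, -3.05 for Cdsn, -2.49 for Emid1, -2.48 for Cdhr5, -2.41 for Srpx2 and -1.24 for Tnc. Signalling and transport genes below 0 had values of -3.12 for Rgs11, -2.50 for Kcnj11, -1.61 for Slc22a4, -1.60 for Mras, -0.92 for Pde4a and -0.58 for Syde1, a GTPase regulator. Enzymes below 0 had values of -3.39 for Tusc3, as part of its complex, -2.52 for Ddah1, -2.23 for Atp5g1, -1.81 for Gys2, -1.40 for Cerkl, -1.31 for the cytochrome P450 Cyp4b1, -1.21 for Ust, -1.17 for Fads1 and -0.99 for Shmt1. The remaining genes below 0 had values of -2.88 for Zfr2, -2.26 for Spag5, -1.65 for D830030K20Rik and -1.45 for Hspa12a.

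A single library stood apart from the other 3 of its group in 7 of 168 groups of 4 examined by Dixon's criterion, which flags about 1 in 20 groups by chance. Control 22 °C library 1, the shallowest, was low for C3 (7796 normalised counts against 11743 to 12595) and for Obsl1 (36.3 against 54.8 to 59.6), and control 22 °C library 2 was high for Cyp4b1 (819 against 459 to 501). In cool Cre-labelled animals, library 2 was low for Hip1r (297 against 384 to 391), and library 4 was high for Ifrd1 (872 against 649 to 665). In the warm, control library 1 was high for Pde4a (1525 against 1120 to 1162) and Cre-labelled library 1 was low for Syde1 (532 against 566 to 567).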

How the results depend on the processing

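None of the 58 called genes changed the sign of its interaction under any alternative that kept it, but the number of calls moved widely. Genes above and below 0 numbered 14 and 23 with no variance trend, 12 and 22 with the muscle score as a covariate, 135 and 188 with array weights, and 82 and 98 without the pair of sparsest libraries. The count below 0 was 56 with a pseudocount of 10 and 54 after quantile normalisation. Leaving out 1 library gave 4 to 42 genes above 0 and 17 to 62 below. Same-numbered libraries did not deviate together (residual r from -0.48 to 0.24, over 0.1 in 6 of 24 pairs and in 19 of 72 other pairs, with 4 of 16 libraries correlating best with their own number). The labels do not say whether the numbers pair samples. These correlations cannot exclude it, since a pairing weaker than the other spread between libraries would be missed. A replicate block gave 5 genes above 0 and 19 below. For the genotype difference at 22 °C, genes higher and lower numbered 1567 and 1502 with array weights and 1147 and 1197 without the sparsest libraries, with 453 higher after quantile normalisation, and leaving out 1 library gave 404 to 1164 and 360 to 1192. At 30 °C they numbered 1336 and 1509 with array weights and 1329 and 1466 without the sparsest libraries, and leaving out 1 library gave 452 to 982 and 559 to 1135. Quantile normalisation and median centring moved the median interaction of all genes to 0.00. The cause of these moves was not tested.

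The shapes depend on what counts as near 0. With 0.25 in place of 0.5, genes above 0 numbered 2 near 0 at 22 °C, 7 at 30 °C and 0 at both, 9 with opposite signs, and 3 and 2 with the same sign and a larger difference at 30 and 22 °C. Genes below 0 then numbered 5, 2 and 0 near 0, 14 with opposite signs and 7 larger at 30 °C. With 1 in place of 0.5, genes above 0 numbered 6 near 0 at 30 °C, 10 at both and 1 with opposite signs, and genes below 0 numbered 8 near 0 at 30 °C, 5 at both, 2 with opposite signs, and 1 and 3 larger at 30 and 22 °C. Called genes with a BCL6 peak numbered 5 within 10 kb and 4 to 7 under the other peak settings. Within 2 kb the shares were 8.7% above 0 and 8.57% below, beside 5.88% of all genes tested. Within 50 kb they were 17.4% and 8.57% beside 11.9%. With the higher-scoring part of the peaks within 10 kb they were 4.35% and 8.57% beside 3.73%. No difference between these shares was tested. Depth limits the low genes most, since 1 read is worth about 3.92 normalised counts in control 22 °C library 1.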

Other observations

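Called genes that lie within a megabase of each other on a chromosome gave 3 neighbouring pairs. Mt2 and Mt1 on chromosome 8 had interactions of the same sign, 2.09 and 1.15, as had Kif3a, a kinesin motor subunit, and Slc22a4 on chromosome 11, with -1.35 and -1.61 at a distance of 378866 bases. The call of Kif3a (limma adjusted p = 0.029) was lost when some single library was left out. Tmem8 and Rgs11, 79272 bases apart on chromosome 17, had opposite signs, 1.19 and -3.12. These pairs were noticed after the values were seen and were given no test.

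Some genes with interactions far from 0 did not pass the test. In the list of immediate early genes Fosb had an interaction of 4.18, the highest of all genes tested, with a limma adjusted p of 0.19. In the creatine and calcium cycling list Ckm and Ckmt2, the creatine kinases of muscle, had -4.43 and -3.91 with adjusted p of 0.638 and 0.627, in the same libraries whose muscle gene sums varied most, and the part of muscle tissue in these values was not tested. Ckb, the brain-type creatine kinase that brown adipocytes also express, had -1.28 with an adjusted p of 0.215.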
